A study of Mus musculus with 12 samples.

Results

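Hmgcs1, Mvd, Idi1, Fdps, Fdft1, Sqle, Lss and Cyp51 encode 8 enzymes of cholesterol synthesis. They were taken by exact match of the gene symbol from the table of read counts in mouse liver, which lists 24411 genes. All 8 were found and all 8 passed the filter on low counts that left 13922 genes. The cells of the liver make cholesterol from acetyl-CoA through mevalonate, isoprenoids and squalene, the first sterol being lanosterol. The genes of the pathway are classical targets of the transcription factor SREBP-2 (gene Srebf2), which the escort protein SCAP carries out of the endoplasmic reticulum when sterols are scarce and which INSIG proteins hold back when sterols are plentiful. Squalene epoxidase (Sqle) is one of the rate-limiting enzymes of the route.

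Liver RNA of 9 mice at 3 months of age was analyzed, 3 of each of 3 genotypes. All mice carried Atg7flox/flox, with loxP sites in both copies of Atg7, a gene required for autophagosome formation. Cont. mice carried nothing else, Atg7-KO mice also carried Alb-Cre, which the albumin promoter drives in hepatocytes, and Atg7-KO;p62T352A mice carried Alb-Cre and, on both alleles of the endogenous p62 gene Sqstm1, a threonine-to-alanine exchange in the region that binds KEAP1. p62 is an autophagy receptor and KEAP1 holds back the transcription factor NRF2. The design asked what loss of autophagy did to the liver transcriptome and whether the p62T352A exchange altered it. Mice with p62T352A and intact Atg7 were not analysed here. RNA came from whole liver, so fewer cells of a type and less RNA per cell cannot be told apart.

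The libraries held 9671080 to 23285132 counts. Levels are given as normalized CPM (CPM, the share of a library's counts scaled to the same total, with TMM factors). A gene was called where edgeR's quasi-likelihood test gave a Benjamini-Hochberg adjusted p (FDR) under 0.05 over all genes tested and the fold change was over 1.5. Atg7 stood at 46.4, 44.2 and 55.4 normalized CPM in cont., 10.1, 9.57 and 12.0 in Atg7-KO and 29.7, 27.4 and 29.5 in Atg7-KO;p62T352A mice. Atg7 was thus lower than in cont. in both genotypes with Alb-Cre, but 2.73-fold higher in Atg7-KO;p62T352A than in Atg7-KO (log2 fold change 1.45 ± 0.17 SE, edgeR adjusted p = 0.000164). The part of this difference in the results that follow was not tested. Cont. mice 2 and 3 stood apart in genes of the circadian clock: Dbp was at 0.86 normalized CPM in cont. mouse 1, at 79.8 and 193 in cont. mice 2 and 3, and between 0.783 and 4.27 in the other 6 mice. Mouse 1 of each genotype had Xist, the RNA of the inactive X chromosome, at no more than 1.35 normalized CPM against 373 to 2015 in all other mice. Cont. mouse 2 had both Xist, at 1181, and the Y-linked Ddx3y, at 23.6 normalized CPM. In the other mice with Xist, Ddx3y was at 6.04 in cont. mouse 3, and at 2.34 and 0.384 in Atg7-KO mice 2 and 3. It was at 8.20 and 2.94 in Atg7-KO;p62T352A mice 2 and 3. Mouse 1 of cont., Atg7-KO and Atg7-KO;p62T352A had Ddx3y at 68.2, 46.5 and 70.5 normalized CPM.

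The members in order of the pathway, with their positions on GRCm38 (mm10) in the GENCODE vM21 annotation, are as follows. Hmgcs1, HMG-CoA synthase, which forms HMG-CoA from acetoacetyl-CoA, lies at chr13:119690379-119708260 on the plus strand. Mvd, mevalonate diphosphate decarboxylase, which forms isopentenyl diphosphate, lies at chr8:122433601-122443422 on the minus strand. Idi1, the isomerase that interconverts isopentenyl and dimethylallyl diphosphate, lies at chr13:8885501-8892451 on the plus strand. Fdps, farnesyl diphosphate synthase, which joins these units, lies at chr3:89093588-89101959 on the minus strand. Fdft1, squalene synthase, the first enzyme committed to sterols, lies at chr14:63145150-63179578 on the minus strand. Sqle, which adds oxygen to squalene, lies at chr15:59315077-59331192 on the plus strand. Lss, lanosterol synthase, which closes the rings, lies at chr10:76531588-76557138 on the plus strand. Cyp51, lanosterol 14-alpha-demethylase, lies at chr5:4081145-4104746 on the minus strand. For Idi1, Fdps and Fdft1, 23.6%, 23.5% and 21.8% of the 75-base stretches of their transcripts also occur in a transcript of another gene, which makes their counts less certain. Exons of Fdft1 overlap those of Ctsb (cathepsin B) on the other strand, those of Idi1 overlap Gm48574, those of Hmgcs1 Gm48342, those of Lss 4930483K19Rik and those of Cyp51 Akap9, all on the other strand, and those of Fdps overlap Gm43738 on the same strand. The strand setting of the counting was not given in the sources used here, and without strand such reads cannot be told apart. Mvd and Sqle shared no stretch with another gene.

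RefSeq promoters (GRCm38.p6, 250 bases before to 50 after the start site) were given for Hmgcs1, Mvd, Idi1, Lss and Cyp51, not for Fdps, Fdft1 and Sqle. They were searched on both strands for the sterol regulatory element bound by SREBP (TCACNCCAC) and for the boxes of its partners NF-Y (CCAAT) and Sp1 (GGGCGG). The Hmgcs1 promoter is shown because it was the only one of the 5 with the letters of the sterol regulatory element, which 1.24% of 32851 promoters hold. Its 250 bases before the start site are chr13:119690101-119690350, plus strand, with the sterol regulatory element, the NF-Y boxes (written ATTGG where they lie on the opposite strand) and the Sp1 boxes (CCGCCC on the opposite strand) in capitals.
Hmgcs1: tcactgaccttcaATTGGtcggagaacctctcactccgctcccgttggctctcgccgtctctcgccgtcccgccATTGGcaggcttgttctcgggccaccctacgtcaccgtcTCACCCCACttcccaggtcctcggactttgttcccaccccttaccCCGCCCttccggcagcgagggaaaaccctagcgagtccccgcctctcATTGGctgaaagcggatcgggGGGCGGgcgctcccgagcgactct

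An NF-Y box was present in all 5 member promoters, against 37.4% of all promoters, and an Sp1 box in all 5, against 35.7%. Of the other enzymes of the pathway, 10 of 11 with a promoter held each box in any of their promoters. The 30 bases around the NF-Y box nearest to the start site on its upstream side are shown, box in capitals, to compare its place between members. They are chr13:119690294-119690323 (plus strand) for Hmgcs1, chr8:122443432-122443461 (minus) for Mvd, chr13:8885580-8885609 (plus) for Idi1, chr10:76531531-76531560 (plus) for Lss and chr5:4104709-4104738 (minus) for Cyp51.
Hmgcs1: tccccgcctctcATTGGctgaaagcggatc
Mvd: ccggccagcgggCCAATcatatggcagcgc
Idi1: gtccaaggtgccATTGGctggcgaccgaca
Lss: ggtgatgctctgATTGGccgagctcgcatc
Cyp51: cgctgtccgccaCCAATctggtcctgagat

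The box began at position -45 from the start site in Hmgcs1, -27 in Mvd, -14 in Idi1, -62 in Lss and -29 in Cyp51. For Idi1 and Cyp51 the bases shown lie inside the GENCODE gene positions given above, because the RefSeq start site used here differs from the GENCODE one. The clock E-box CACGTG (7.15% of all promoters) and the NRF2 element TGACNNNGC (12.4%) had no match in the 5 promoters, which says only that these letters are not in these windows. Of the 11 other enzymes of the pathway, 3 held the E-box, 4 the NRF2 element and 0 the sterol regulatory element in any of their promoters. The E-box of Dhcr7 and the NRF2 elements of Dhcr7 and Pmvk lay in further promoters of these genes. These counts per gene are thus not on the same footing as the shares per promoter.

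Per kilobase of transcript, the members fell into 3 tiers in cont. livers. Fdps, at 155 ± 37.8 normalized CPM per kb (SD, n = 3), and Hmgcs1, at 102 ± 31.6, were the most abundant, and their ranges over mice overlapped. Idi1 (45.3 ± 18.8), Fdft1 (29.5 ± 6.63) and Cyp51 (25.5 ± 8.79) followed, with ranges that overlapped each other and did not reach those of Hmgcs1 or Mvd. Mvd (11.8 ± 2.28), Lss (10.1 ± 1.75) and Sqle (9.19 ± 1.85 normalized CPM per kb) were lowest and overlapped. In Atg7-KO livers Sqle left this lowest tier, at 40.3 ± 2.75 normalized CPM per kb, beside Fdft1 at 47.8 ± 1.83 and Cyp51 at 47.1 ± 4.34.

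In Atg7-KO livers, Sqle rose 4.38-fold over cont. and was the only one of the 8 members called. Idi1, Fdft1, Cyp51 and Mvd had higher values in every Atg7-KO mouse than in any cont. mouse but did not pass the test. Hmgcs1, Fdps and Lss overlapped between the genotypes. The median log2 fold change of the 8 members was 0.61, against -0.03 for all genes tested. Over all genes tested, 21.6% were called higher and 22.1% lower, while 29.2% had all Atg7-KO mice above all cont. mice and 26.3% all below. Of the 8 members, 1 was called higher and 5 lay above cont. without overlap. Of the 11 other enzymes of the pathway, 4 lay above without overlap and 3 below. The members were chosen with earlier results of these data known, so these comparisons with all genes only describe them.

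**Figure D1:**
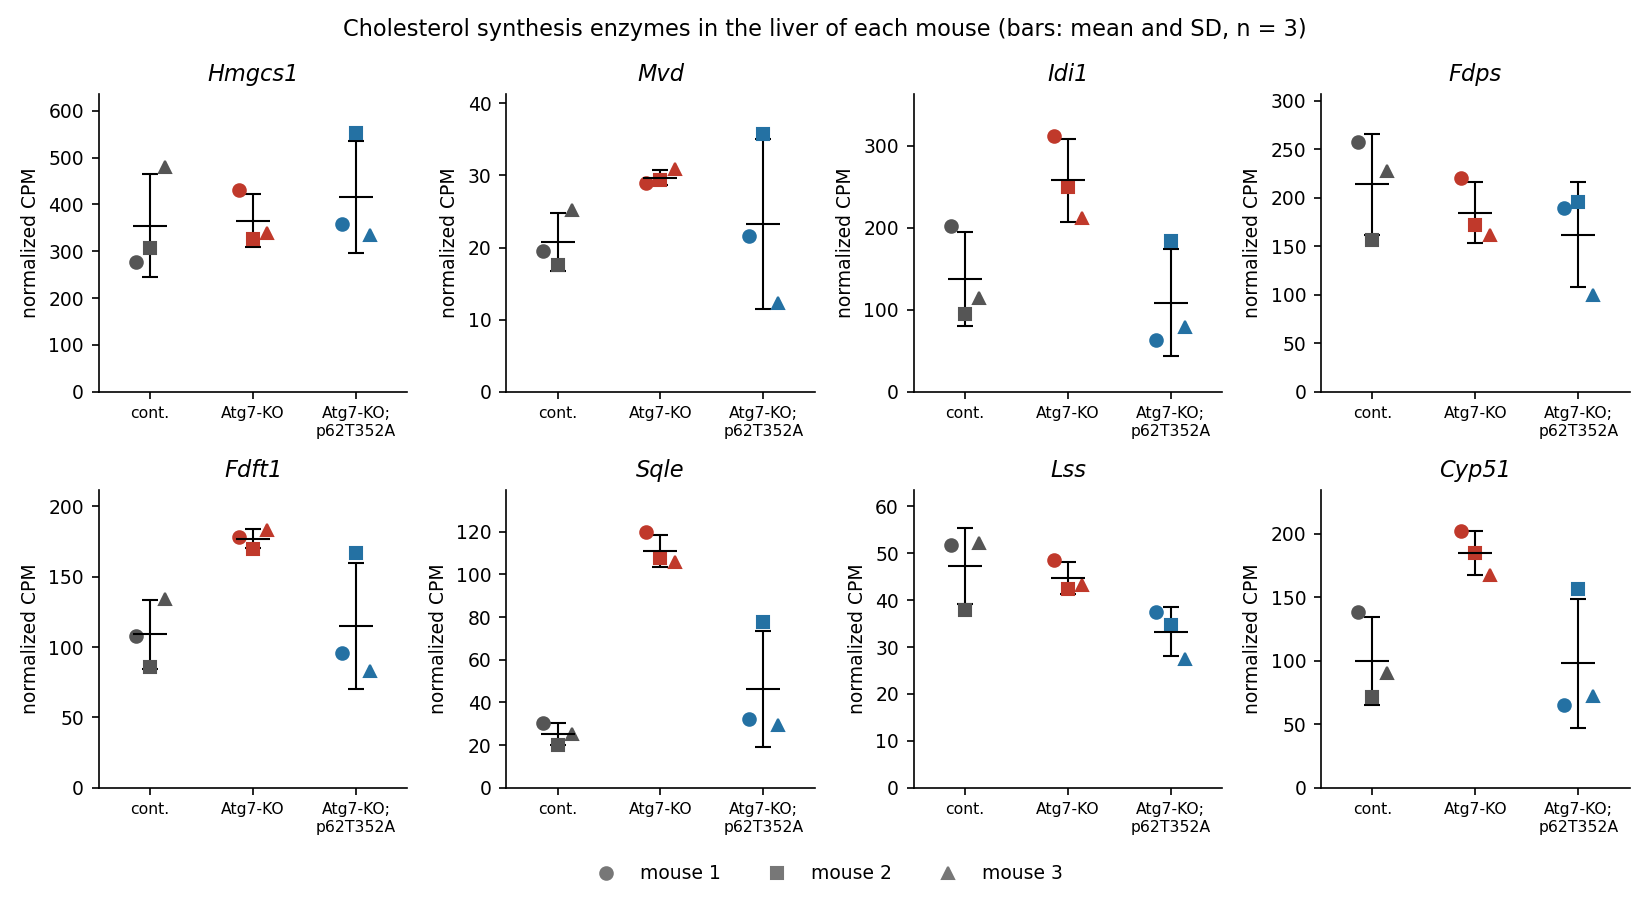
Normalized CPM of the 8 members in each of the 9 mice, 1 panel per gene with its own axis from 0. Symbols mark the mouse number within a genotype, and bars give the mean and SD of 3 mice. Sqle lies between 106 and 120 in Atg7-KO and between 20.2 and 30.4 in cont. mice, and Atg7-KO;p62T352A mouse 2 lies above the other 2 mice of its genotype for all members but Lss.

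Sqle was at 30.4, 20.2 and 25.4 normalized CPM in cont. mice and at 120, 108 and 106 in Atg7-KO mice. Every Atg7-KO mouse was more than 3-fold above the highest cont. mouse. The log2 fold change was 2.13 ± 0.36 (SE, edgeR adjusted p = 0.00136). Sqle kept this call in all 21 alternative settings, with log2 fold changes of 1.73 to 2.28 and adjusted p of 3.05e-07 to 0.0326. The smallest fold change was that against cont. mouse 1 alone. This mouse differed from the other cont. mice in Dbp, Xist and Ddx3y, and the part of these differences in its Sqle level was not tested.

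Fdft1, upstream of Sqle, was at 108, 85.5 and 134 normalized CPM in cont. and at 178, 170 and 183 in Atg7-KO mice. The groups did not overlap, and Atg7-KO mice were closely grouped (log2 fold change 0.70 ± 0.27 SE, edgeR adjusted p = 0.0612). Ctsb, whose exons overlap those of Fdft1, was called higher in Atg7-KO, at 1290 ± 18.9 against 555 ± 197 normalized CPM in cont. (log2 fold change 1.22 ± 0.25), and its part in the counts of Fdft1 was not tested. Cyp51, the enzyme after lanosterol, was at 138, 71.2 and 90.7 in cont. and at 202, 185 and 168 normalized CPM in Atg7-KO mice. Here too no mouse overlapped (log2 fold change 0.89 ± 0.35 SE, edgeR adjusted p = 0.0646).

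Idi1 was at 202, 95.1 and 115 normalized CPM in cont. mice and at 311, 250 and 212 in Atg7-KO mice. The genotypes came within 10 normalized CPM of each other at cont. mouse 1 and Atg7-KO mouse 3 (log2 fold change 0.91 ± 0.42 SE, edgeR adjusted p = 0.0998). Mvd, a step earlier, was at 19.5, 17.6 and 25.3 in cont. and at 28.9, 29.3 and 30.8 normalized CPM in Atg7-KO mice. Its groups did not overlap, at a log2 fold change of 0.52 ± 0.33 (SE, edgeR adjusted p = 0.219).

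The remaining members did not separate the genotypes. Hmgcs1 was at 277, 307 and 480 normalized CPM in cont. and at 430, 327 and 339 in Atg7-KO mice (log2 fold change 0.04 ± 0.28 SE, edgeR adjusted p = 0.907). Fdps was at 258, 156 and 228 in cont. and at 220, 172 and 161 normalized CPM in Atg7-KO mice (log2 fold change -0.21 ± 0.29 SE, edgeR adjusted p = 0.572). Lss was at 51.7, 37.8 and 52.2 in cont. and at 48.6, 42.4 and 43.1 normalized CPM in Atg7-KO mice (log2 fold change -0.08 ± 0.19 SE, edgeR adjusted p = 0.749). The Atg7-KO mice of these genes lay within the range of the cont. mice.

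The count of members called in Atg7-KO against cont. depended on single mice. It was 3 without cont. mouse 1 (Idi1, Sqle and Cyp51), 2 without cont. mouse 3 (Fdft1 and Sqle) and 4 without Atg7-KO;p62T352A mouse 2 (Idi1, Fdft1, Sqle and Cyp51), a mouse of neither genotype compared. The cause was not tested. Over all genes, 3006 of 13922 were called higher with all mice and 3984 of 14207 without cont. mouse 1. There were 2837 of 14166 without cont. mouse 3, 3012 of 14203 without Atg7-KO;p62T352A mouse 2 and 3816 of 14060 with mouse 1 of every genotype left out. With mouse 1 of every genotype left out, 3 were called: Sqle, Idi1 (log2 fold change 1.14, edgeR adjusted p = 0.0243, over a range of 0.0197 to 0.776 in all settings) and Cyp51 (1.125, edgeR adjusted p = 0.0204, over a range of 0.0137 to 0.646). Against cont. mouse 1 alone, with cont. mice 2 and 3 left out, the log2 fold change of Idi1 was 0.21 and that of Cyp51 0.28, and Sqle was the 1 member called. By DESeq2, 2 members were called higher, as were 3005 of all 13922 genes, and by edgeR 3 members had an unadjusted p under 0.05 and a higher level. No member was called lower by either tool or had an unadjusted p under 0.05 and a lower level.

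**Figure D2:**
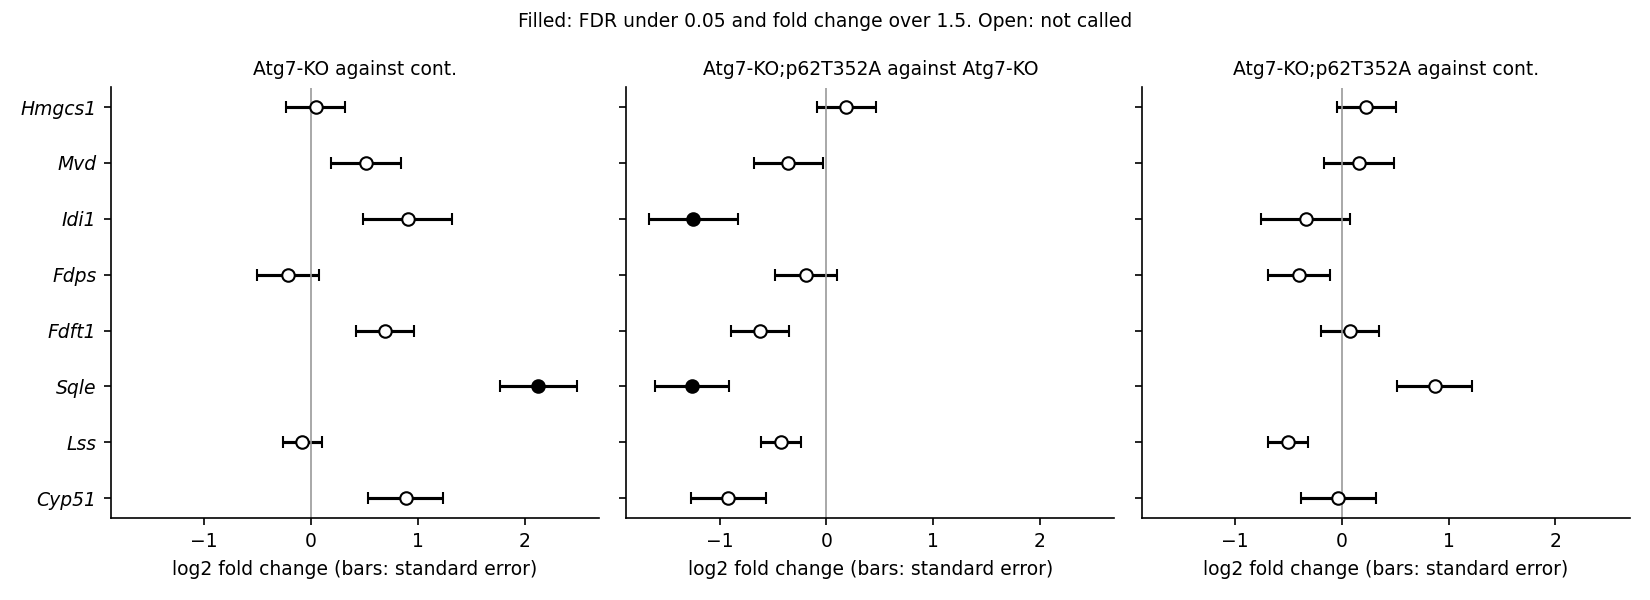
Log2 fold changes of the 8 members in the 3 comparisons between genotypes, with bars for the standard error. Filled points are called and open points are not: Sqle in Atg7-KO against cont. (2.13), Idi1 and Sqle in Atg7-KO;p62T352A against Atg7-KO (-1.25 and -1.26), and none in Atg7-KO;p62T352A against cont.

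In Atg7-KO;p62T352A livers, Idi1 and Sqle were lower than in Atg7-KO livers, to 0.422-fold and 0.418-fold. Fdft1, Cyp51 and Lss were lower in every mouse without passing the test. Mvd, Fdps and Hmgcs1 overlapped between the genotypes. Over all genes tested, 26.2% were called lower and 24.7% higher, while 36.8% had all Atg7-KO;p62T352A mice below all Atg7-KO mice and 36.4% all above. Of the 8 members, 2 were called lower and 5 lay below Atg7-KO without overlap. Of the 11 other enzymes of the pathway, 4 lay below without overlap and 1 above. Because the members were chosen with earlier results known, comparisons with all genes only describe them here too. The median log2 fold change of the members was -0.52, against 0.00 for all genes.

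Sqle was at 32.0, 77.8 and 29.4 normalized CPM in Atg7-KO;p62T352A mice. Mice 1 and 3 lay near the highest cont. mouse, and mouse 2 lay between the cont. and the Atg7-KO mice (log2 fold change against Atg7-KO -1.26 ± 0.35 SE, edgeR adjusted p = 0.013). The call was lost without Atg7-KO;p62T352A mouse 1 (-1.05, edgeR adjusted p = 0.0524) and with mouse 1 of every genotype left out (-0.99, adjusted p = 0.0539), over a range of adjusted p of 0.000711 to 0.0539 in all settings. Idi1 was at 63.1, 183 and 79.5 normalized CPM in Atg7-KO;p62T352A mice. Again mouse 2 was highest, and all 3 were below the lowest Atg7-KO mouse (log2 fold change -1.25 ± 0.42 SE, edgeR adjusted p = 0.03). Idi1 lost its call without Atg7-KO mouse 1, Atg7-KO mouse 2, Atg7-KO;p62T352A mouse 1 or Atg7-KO;p62T352A mouse 3, with adjusted p of up to 0.105 and a log2 fold change of -0.81 to -1.85 over all settings.

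Cyp51 was at 65.2, 156 and 72.2 normalized CPM in Atg7-KO;p62T352A mice. It just missed the threshold (log2 fold change -0.92 ± 0.35 SE, edgeR adjusted p = 0.0509) and passed it in 8 of 21 alternatives, over adjusted p of 0.00547 to 0.174. Fdft1 was at 96.0, 166 and 83.0, with mouse 2 just below the lowest Atg7-KO mouse at 170 normalized CPM (log2 fold change -0.62 ± 0.27 SE, edgeR adjusted p = 0.0803). Lss was at 37.6, 34.8 and 27.5 normalized CPM. These values lay below those of all Atg7-KO mice (log2 fold change -0.43 ± 0.19 SE, edgeR adjusted p = 0.0795).

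Mvd was at 21.6, 35.7 and 12.3 normalized CPM in Atg7-KO;p62T352A mice, so that mouse 2 exceeded every Atg7-KO mouse (log2 fold change -0.36 ± 0.32 SE, edgeR adjusted p = 0.375). Fdps was at 190, 196 and 99.7, with only mouse 3 outside the range of Atg7-KO (log2 fold change -0.19 ± 0.29 SE, edgeR adjusted p = 0.602). Hmgcs1 was at 359, 553 and 335 normalized CPM, where mouse 2 exceeded all other mice analysed (log2 fold change 0.19 ± 0.28 SE, edgeR adjusted p = 0.588). Without Atg7-KO;p62T352A mouse 2, 5 members were called lower than in Atg7-KO (Mvd, Idi1, Fdft1, Sqle and Cyp51). Without Atg7-KO;p62T352A mouse 1 there were 0, and without Atg7-KO mouse 1, Atg7-KO mouse 2 or Atg7-KO;p62T352A mouse 3 there was 1, which was Sqle. With mouse 1 of every genotype left out 0 were called. By DESeq2, 3 were called lower, as were 3841 of all 13922 genes. By edgeR, 3652 of 13922 genes were called lower with all mice and 3329 of 14203 without Atg7-KO;p62T352A mouse 2. There were 3150 of 14184 without Atg7-KO;p62T352A mouse 1 and 3884 of 14060 with mouse 1 of every genotype left out. Without Atg7-KO mouse 1, Atg7-KO mouse 2 or Atg7-KO;p62T352A mouse 3 there were 3103 of 14148, 2985 of 14113 and 3208 of 14188.

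Against cont., none of the 8 members was called in Atg7-KO;p62T352A livers by edgeR or DESeq2, in a comparison in which edgeR called 6.25% of all genes tested higher and 5.34% lower. At an unadjusted p under 0.05 by edgeR there was 1 higher member, Sqle, and 1 lower member, Lss. Sqle was 1.83-fold higher in the mean, with Atg7-KO;p62T352A mouse 3 below the highest cont. mouse (log2 fold change 0.87 ± 0.35 SE, edgeR adjusted p = 0.138). Lss was the only member whose genotypes did not overlap, with all Atg7-KO;p62T352A mice lower (log2 fold change -0.50 ± 0.19 SE, edgeR adjusted p = 0.113), where 11.2% of all genes had all such mice below all cont. mice and 15.5% all above. Lss passed the threshold in 1 of 21 alternatives, that against cont. mouse 1 alone (-0.76, adjusted p = 0.0149), over a range of adjusted p of 0.0149 to 1. For the other 6 members the log2 fold changes lay between -0.40 ± 0.29 (SE) for Fdps and 0.23 ± 0.28 for Hmgcs1, and the median over all 8 was 0.02. This comparison shares its mice with the other 2, so the 3 sets of values are not independent of each other.

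Within each genotype, most members shared their highest or their lowest mouse. Atg7-KO;p62T352A mouse 2 was the highest of its genotype for 7 of 8 members, where 34.4% of all genes tested were highest in this mouse. Its level was 2.57 times the mean of mice 1 and 3 for Idi1, 2.53 times for Sqle, 2.28 times for Cyp51, 2.10 times for Mvd, 1.86 times for Fdft1, 1.60 times for Hmgcs1, 1.36 times for Fdps and 1.07 times for Lss. Cont. mouse 2 was the lowest cont. mouse for 7 of 8 members, where 23.7% of all genes were lowest in it. The pattern was not particular to the members. The 11 other enzymes of the pathway summed to 1323 normalized CPM in Atg7-KO;p62T352A mouse 2, against 1232 and 903 in mice 1 and 3. Their sum was 997 in cont. mouse 2, against 1753 and 1281 in cont. mice 1 and 3. The median coefficient of variation of the members was 44.8% in Atg7-KO;p62T352A against 18.3% over all genes, 8.38% in Atg7-KO against 8.35%, and 23.5% in cont. against 30.8%. Dbp was at 0.981 normalized CPM in Atg7-KO;p62T352A mouse 2, against 1.00 and 0.783 in mice 1 and 3 of that genotype. These levels rest on 12 to 14 counts per mouse, too few to compare the mice. The 13 clock genes together were lowest in mouse 2 of this genotype, at a sum of 300 normalized CPM, and highest in mouse 1, at 429. The part of the clock genes in the levels of mouse 2 was not tested. Xist was at 601 in mouse 2 and 905 in mouse 3, and at 0.643 normalized CPM in mouse 1. Ddx3y was at 8.20 in mouse 2 and 2.94 in mouse 3, and at 70.5 normalized CPM in mouse 1. The members in mouse 3 were as low as or lower than in mouse 1 for 6 of 8.

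**Figure D3:**
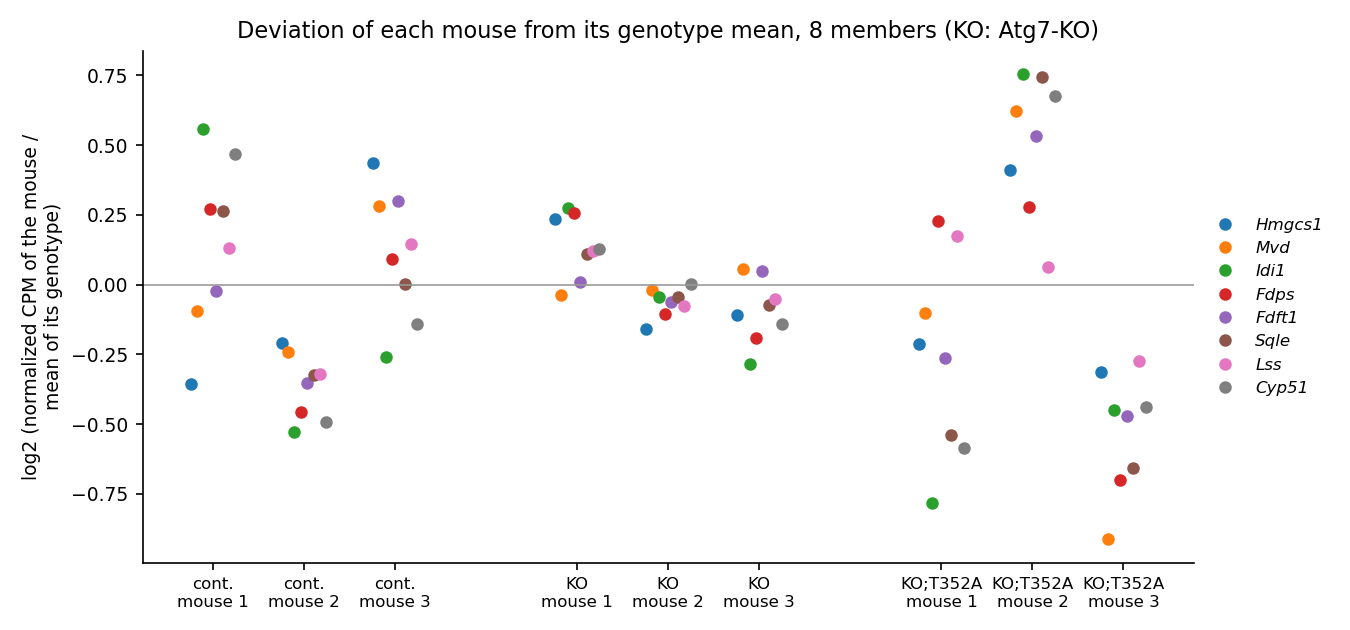
Log2 of each mouse's normalized CPM over the mean of its genotype for the 8 members, 1 column per mouse and 1 colour per gene. All 8 members lie above 0 in Atg7-KO;p62T352A mouse 2 and below 0 in mouse 3 of that genotype and in cont. mouse 2, and the Atg7-KO mice lie closest to 0.

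The other enzymes of the pathway moved in both directions. Of 11 further enzymes, 1 rose and 2 fell in Atg7-KO livers against cont. (background 21.6% and 22.1%), with 0 to 3 higher and 0 to 3 lower over all alternatives. Acat2, which joins acetyl-CoA units before Hmgcs1, had means of 72.8 ± 21.7 normalized CPM in cont., 121 ± 19.0 with Atg7 deleted and 53.7 ± 10.6 with p62T352A in addition (SD, n = 3). It rose in Atg7-KO (log2 fold change 0.74 ± 0.25 SE, edgeR adjusted p = 0.0352) and was lower in Atg7-KO;p62T352A than in Atg7-KO (-1.18 ± 0.25, edgeR adjusted p = 0.00366). Of the 75-base stretches of Acat2, 33.9% also occur in another gene, so that its counts are uncertain.

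Tm7sf2, a sterol 14-reductase, and Ebp, a sterol isomerase, fell in Atg7-KO livers, each with a log2 fold change of -1.03. Ebp was 1.14 higher on the log2 scale in Atg7-KO;p62T352A than in Atg7-KO, the only one of the 11 called in that direction. Called lower in Atg7-KO;p62T352A than in Atg7-KO were 4 of the 11 (background 26.2%): Acat2, Pmvk (phosphomevalonate kinase, -0.96), Lbr (another sterol 14-reductase, -0.69) and Hsd17b7 (a ketoreductase of the demethylation at carbon 4, -1.20). Mvk, Msmo1, Nsdhl, Sc5d and Dhcr7 were not called in any comparison, with log2 fold changes between -0.63 (Sc5d) and 0.52 (Dhcr7) in Atg7-KO against cont. None of the 11 was called in Atg7-KO;p62T352A against cont. by edgeR, while 1 had an unadjusted p under 0.05 and a lower level, and DESeq2 called 1 lower. With cont. mouse 1 as the only cont. mouse, 0 of the 11 were called higher in Atg7-KO (3 had an unadjusted p under 0.05 and a higher level with all cont. mice), and 5 were called lower in Atg7-KO;p62T352A than in cont.

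**Figure D4:**
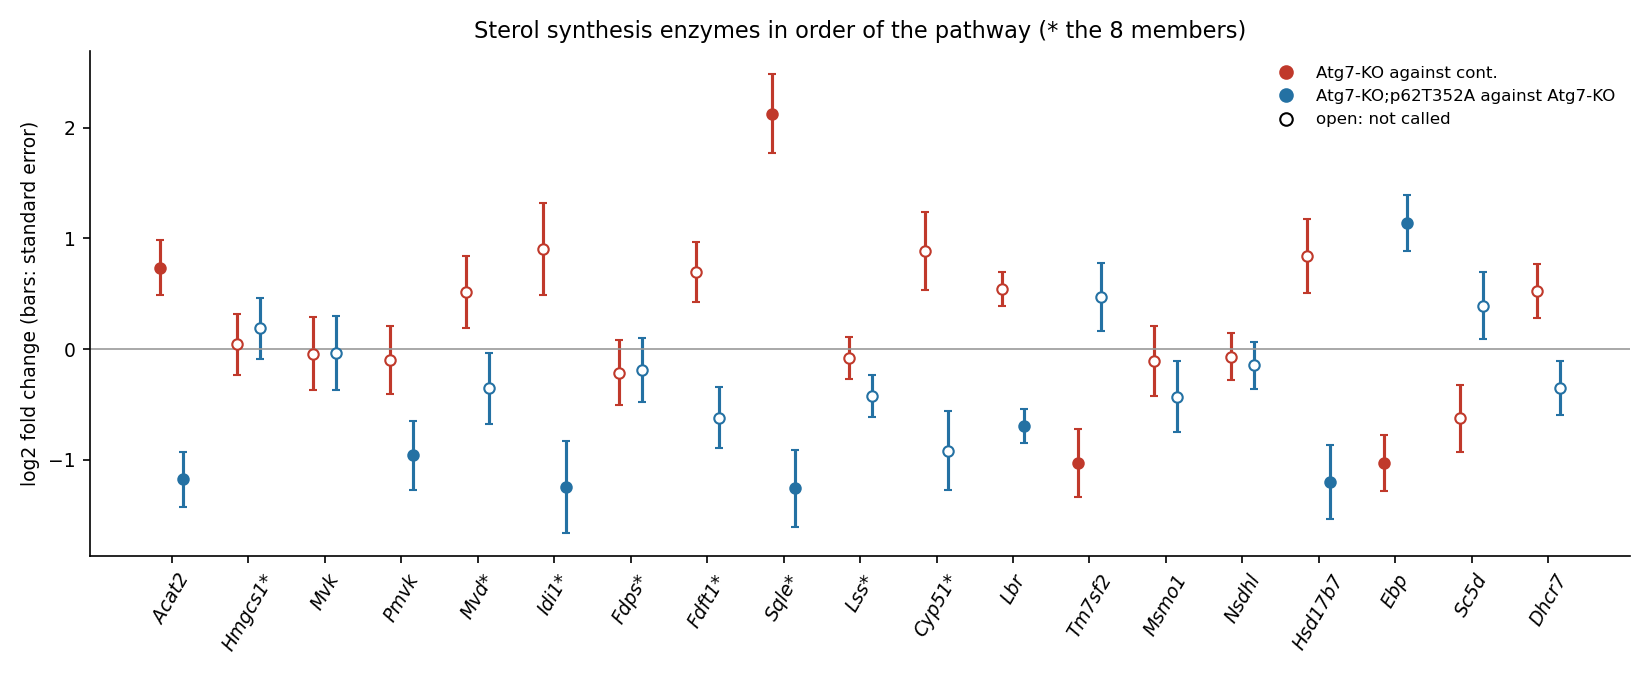
Log2 fold changes with standard errors of 19 enzymes in the order of the pathway, in Atg7-KO against cont. (red) and in Atg7-KO;p62T352A against Atg7-KO (blue). Filled points are called. Sqle has the largest rise, at 2.13, and in Atg7-KO;p62T352A against Atg7-KO Sqle lies at -1.26 and Ebp at 1.14, while Tm7sf2 and Ebp lie at -1.03 in Atg7-KO. Both comparisons use the same Atg7-KO mice.

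Of 7 genes that control the pathway, edgeR called Srebf2, Scap, Mbtps2 and Srebf1 in at least 1 comparison. Srebf2 was at 50.7, 40.3 and 24.0 normalized CPM in cont. mice. The Atg7-KO mice had 54.0, 57.7 and 53.7, and the Atg7-KO;p62T352A mice 17.6, 28.2 and 18.5 normalized CPM. It was lower in Atg7-KO;p62T352A than in Atg7-KO (log2 fold change -1.36 ± 0.28 SE, edgeR adjusted p = 0.00305), and mouse 2 was the highest of its genotype, as for the members. Scap, the escort, was 0.410-fold in Atg7-KO against cont. and 2.03-fold in Atg7-KO;p62T352A against Atg7-KO. Mbtps2, the site-2 protease that releases SREBP from the membrane, was 2.14-fold in Atg7-KO against cont. and 0.433-fold in Atg7-KO;p62T352A against Atg7-KO. Srebf1, whose product drives fatty acid synthesis, was lower in Atg7-KO (-1.28 ± 0.30 against cont.). Insig1 (log2 fold change -0.69 in Atg7-KO against cont., edgeR adjusted p = 0.0651), Insig2 and Mbtps1 were not called by edgeR. In Atg7-KO against cont., 1 of the 7 was called higher and 2 lower (background 21.6% and 22.1%), with 1 to 3 higher and 2 to 4 lower over all alternatives and 3 lower by DESeq2. In Atg7-KO;p62T352A against Atg7-KO, 1 was called higher and 2 lower (background 24.7% and 26.2%). In Atg7-KO;p62T352A against cont. there were 0 (1 lower at an unadjusted p under 0.05 by edgeR and 1 lower by DESeq2).

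Of 5 SREBP-2 targets outside the synthesis route, Tmem97 (1.76-fold) and Rdh11 (1.91-fold) rose in Atg7-KO livers, and Stard4 (0.549-fold), a sterol carrier, and Mmab (0.499-fold) fell (background 21.6% higher and 22.1% lower). Over all alternatives, 0 to 2 were called higher and 1 to 3 lower. In Atg7-KO;p62T352A against Atg7-KO, 3 were called lower, Stard4 (-1.07), Tmem97 (-0.94) and Rdh11 (-1.05), and Mmab was called higher (0.69), on a background of 26.2% lower and 24.7% higher. Over all alternatives, 1 to 3 were lower and 0 to 1 higher. Called lower in Atg7-KO;p62T352A than in cont. were Stard4 (-1.93 ± 0.30) and Acss2, an acetyl-CoA synthetase (-1.11 ± 0.29), with 0 to 3 lower over all alternatives (background 5.34%).

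Electron donors, enzymes of side branches and factors of protein turnover act beside the members. Cyb5a, cytochrome b5, an electron donor of microsomal steps, was lower in Atg7-KO (-0.66) and higher in Atg7-KO;p62T352A than in Atg7-KO (0.94). Cyb5r3, the reductase of cytochrome b5, was also higher there (0.61, edgeR adjusted p = 0.0338), so that 2 of 4 electron donors were called higher (background 24.7%; 1 by DESeq2), while Por, the reductase that serves Sqle and Cyp51, was not called (-0.98 ± 0.47 against cont.). In the branch to non-sterol isoprenoids, Pdss2, for the side chain of coenzyme Q, was lower in Atg7-KO;p62T352A than in Atg7-KO (-1.26) and cont. (-1.46), and Ggps1, Pdss1, Dhdds and Nus1 were not called. Among ubiquitin ligases and cofactors of the turnover of pathway enzymes, March6, the ligase for squalene epoxidase, was not called (-0.41 ± 0.27 in Atg7-KO against cont.), and Syvn1 was lower in Atg7-KO (-1.47) and higher in Atg7-KO;p62T352A than in Atg7-KO (2.11).

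Markers of other liver cells moved with the Atg7-KO genotype. The summed level of 6 macrophage markers was 228 to 286 normalized CPM in cont. mice, 838 to 888 with Atg7 deleted and 160 to 290 with p62T352A in addition, and 5 of 6 were called higher in Atg7-KO. The background for this and the next 5 lists in Atg7-KO against cont. was 21.6% of all genes tested higher and 22.1% lower. In the same order of genotypes, the 6 stellate cell markers summed to 205 to 262, 891 to 1086 and 323 to 593 normalized CPM, and 6 of 6 were called higher in Atg7-KO. The 5 cholangiocyte markers summed to 33.4 to 51.2, 823 to 1018 and 180 to 265 normalized CPM, with 4 of 5 higher. Spp1 made up most of this sum, with means of 33.8, 871 and 172, while Sox9 had means of 4.87, 25.7 and 30.8 normalized CPM. The 5 lymphocyte markers summed to 3.21 to 8.13, 12.1 to 17.0 and 5.74 to 8.93, with 3 of 5 higher, and the 5 endothelial markers to 220 to 294, 215 to 225 and 123 to 153 normalized CPM, with 2 higher and 1 lower. The 6 hepatocyte markers in the table summed to 67883 to 122490, 36592 to 39272 and 105390 to 119920 normalized CPM, and 4 of 6 (Alb, Apoa1, Ttr and Cps1) were lower in Atg7-KO. Alb made up most of this sum, with means of 62573, 26107 and 79153 normalized CPM. In Atg7-KO;p62T352A against cont., 1 of 6 hepatocyte markers was called lower, Cps1 (0.445-fold). Called higher there were 3 of 6 stellate, 3 of 5 cholangiocyte and 1 of 5 lymphocyte markers. Of the 5 endothelial markers 3 were called lower, and of the 6 macrophage markers 0 were called (background 6.25% higher and 5.34% lower). No marker of these lists was absent from all mice. Sqle was thus higher in livers in which hepatocyte markers were lower, and the part of the cell makeup in the values of the members was not tested. Of 13 clock genes, 9 fell in Atg7-KO livers against cont. (background 22.1%), and for 5 of the 9 the genotypes overlapped. Sqle in cont. mouse 1, at 30.4 normalized CPM, was below every Atg7-KO mouse, and the part of the clock genes in the values of the members was not tested.

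By Pearson correlation over the 9 mice with the mean z-score of the 8 members, the most similar genes outside the list were Mpv17l2 (r = 0.958), SlcUbl4a (0.953, spelled as in the table), Coq7 (0.949), Coq4 (0.928) and Rpl30 (0.927). The 9 points share their libraries and include the differences between genotypes. The mean z-score was 0.96, 0.50 and 0.49 in Atg7-KO mice, 0.04, -0.87 and 0.20 in cont. mice and -0.61, 0.63 and -1.33 in Atg7-KO;p62T352A mice. Coq7, a hydroxylase of coenzyme Q synthesis, was at 22.3 ± 3.32 normalized CPM (SD, n = 3) in Atg7-KO, 18.4 ± 2.57 in cont. and 18.0 ± 6.93 in Atg7-KO;p62T352A livers, ranges that overlapped.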

How the data were processed

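Poly(A) RNA of mouse livers was read by the authors in single-end runs of 75 bp. Per the labels and the study's methods, Trim Galore trimmed the reads, STAR aligned them (mm10) and RSEM estimated the count of each gene. The authors deposited expected counts per gene, 1 column per mouse, not scaled for depth. Tool versions, gene models and the use of strand are not given in the sources used here. Values were rounded to whole numbers. Genotype and mouse number came from the sample labels, and 0 columns were left unused. Each column is 1 mouse, and the study calls the mice of a genotype biological replicates. No 2 replicates agreed within sampling noise.

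Genes were kept with edgeR's filterByExpr (13922 of 24411), scaled by TMM and fitted over all 9 mice in 1 quasi-likelihood model (glmQLFit, glmQLFTest, edgeR 4.0.16 in R 4.3.3), with Benjamini-Hochberg adjustment over all genes tested. Standard errors came from the F statistic. A call needed an FDR under 0.05 and a fold change over 1.5. Levels per kb used the longest coding transcript of GENCODE vM21. The steps were tested on simulated data. Members and gene lists were chosen with earlier results of these data known. Some genes of these lists are not reported here and were left out of the lists' counts. Named genes are all members, genes of fixed lists and the 5 genes most correlated with the members. Ctsb was added after its overlap with Fdft1 was seen. Alternatives were DESeq2 1.42.0, DESeq2 size factors, upper-quartile scaling, a filter of at least 10 counts in every mouse or none, a replicate block, only the 2 genotypes compared, the 20 most abundant genes left out, FDR alone, glmTreat, the mice numbered 1 left out and each mouse left out. Leaving out cont. mice 2 and 3 was added after seeing the data.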

Additional observations from a re-analysis of the deposited data

How the results depend on the processing

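Sqle in Atg7-KO against cont. kept its direction and call in all 21 alternatives. The count of members called higher there was 1 and became 2 with DESeq2 and 3 with upper-quartile normalization, at least 10 counts in every mouse, only the 2 genotypes compared or mouse 1 of every genotype left out, and lay between 1 and 4 when single mice were left out. The count called lower in Atg7-KO;p62T352A against Atg7-KO was 2 and became 4 with upper-quartile normalization, 1 with glmTreat and 0 with mouse 1 of every genotype left out, with a range of 0 to 5 when single mice were left out. With cont. mice 2 and 3 left out, 1 member was called lower in Atg7-KO;p62T352A against cont. in place of 0. Over all alternatives, 0 to 3 of the 11 other enzymes were called higher (1 as reported) and 0 to 3 lower (2 as reported) in Atg7-KO against cont., and 1 to 5 lower in Atg7-KO;p62T352A against Atg7-KO (4 as reported). Called higher over all genes in Atg7-KO against cont. were 3366 of 13922 with upper-quartile normalization, 2212 of 11529 with at least 10 counts and 2829 of 13691 with only the 2 genotypes. Called lower in Atg7-KO;p62T352A against Atg7-KO were 4141 of 13922 with upper-quartile normalization and 2561 of 13922 with glmTreat. The causes were not tested.

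The log2 fold changes that reversed were not called. In Atg7-KO against cont., Lss became 0.033 with upper-quartile normalization and 0.0040 with at least 10 counts, and Hmgcs1 became -0.24 with mouse 1 of every genotype left out and lay between -0.11 and 0.32 when single mice were left out. In Atg7-KO;p62T352A against Atg7-KO, leaving out single mice gave -0.071 to 0.33 for Hmgcs1 and -0.35 to 0.069 for Fdps. In Atg7-KO;p62T352A against cont. it gave -0.030 to 0.51 for Hmgcs1, -0.29 to 0.47 for Mvd, -0.95 to 0.052 for Idi1, -0.29 to 0.27 for Fdft1 and -0.54 to 0.28 for Cyp51. There, Idi1 became 0.33 and Cyp51 0.50 with mouse 1 of every genotype left out, and Fdft1 -0.027 with cont. mice 2 and 3 left out.

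The labels tie mice across genotypes by number alone, though mouse 1 of every genotype also had little Xist. Of the same-number pairs, 6 of 9 had a correlation of deviations over 0.1 (range -0.202 to 0.321). Pairs of mice 1 and pairs of mice 3 lay at 0.137 to 0.321, and pairs of mice 2 at -0.202 to 0.0926. Different-number pairs lay between -0.34 and 0.176. Mice numbered 1 and mice numbered 3 thus resembled each other across genotypes, and what they shared was not tested. As the labels state no pairing, the number entered only as an alternative. With the number as a replicate block, 1 member was higher in Atg7-KO against cont. and 2 lower in Atg7-KO;p62T352A against Atg7-KO, as without it.

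Over all genes, glmTreat called 3855 in place of 6080 in Atg7-KO against cont. and 4718 in place of 7095 in Atg7-KO;p62T352A against Atg7-KO. Against cont., Atg7-KO;p62T352A gave 1613 calls and between 50 (only the 2 genotypes compared) and 4912 (cont. mice 2 and 3 left out) otherwise. With upper-quartile normalization the median over all genes in Atg7-KO;p62T352A against Atg7-KO shifted from 0.00 to -0.135 on the log2 scale. With 3 mice per genotype, leaving out 1 mouse changed calls of Mvd, Idi1, Fdft1, Sqle and Cyp51, that of Sqle in Atg7-KO against cont. excepted.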

Other observations

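Genes for storage and release of cholesterol, outside the synthesis route, were also called. Soat1, which esterifies cholesterol in many cell types, had a mean of 2.96 normalized CPM in the 3 cont. mice, of 18.0 in Atg7-KO and of 3.89 in Atg7-KO;p62T352A livers. Soat2, the hepatocyte form, had means of 72.6, 21.4 and 76.2 normalized CPM. The log2 fold changes in Atg7-KO against cont. were 2.58 ± 0.29 (SE) for Soat1 (edgeR adjusted p = 0.000172) and -1.76 ± 0.34 for Soat2 (edgeR adjusted p = 0.00283). Npc2 and Lipa, which release cholesterol from lysosomes, were 3.33-fold and 1.97-fold in Atg7-KO against cont. and 0.303-fold and 0.397-fold in Atg7-KO;p62T352A against Atg7-KO. Npc1 and Scarb1 were not called.

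Of 7 genes of the LXR nuclear receptors and their targets, 1 was called higher and 2 lower in Atg7-KO against cont. (background 21.6% and 22.1%). In Atg7-KO;p62T352A against Atg7-KO, 2 were called higher and 2 lower (background 24.7% and 26.2%). Abcg1, a sterol exporter, was 4.26-fold in Atg7-KO against cont. (edgeR adjusted p = 2.5e-05) and 0.228-fold in Atg7-KO;p62T352A against Atg7-KO. Nr1h3 and Nr1h2, the receptors, were lower in Atg7-KO at log2 fold changes of -0.64 and -0.77 and higher in Atg7-KO;p62T352A than in Atg7-KO at 0.69 and 0.80. Mylip, a ubiquitin ligase, and Abca1 were lower in Atg7-KO;p62T352A than in cont., at -1.55 and -0.91, and were the 2 of 7 called there (background 5.34% lower). Mylip was also called lower in Atg7-KO;p62T352A than in Atg7-KO (-1.41), and Abcg5 and Abcg8 were not called. Macrophage markers were also higher in Atg7-KO livers, and their part in the levels of Soat1 and Abcg1 was not tested.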
